A study of Drosophila melanogaster with 8 samples.

Results

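Autophagy is the route by which a cell wraps cytoplasm, protein aggregates or organelles in a double membrane and delivers them to the lysosome. It is described here through 10 genes of Drosophila melanogaster, chosen by name because they mark its successive steps: Atg1, Atg9 and Atg18a, which start and supply the membrane, Atg5, Atg7, Atg8a and Atg8b, which belong to the ubiquitin-like conjugation system, ref(2)P, a cargo receptor, Mitf, a transcription factor of lysosome and autophagy genes, and TER94, an ATPase that extracts ubiquitylated proteins. Every row of the deposited expression table with 1 of these gene names was taken, which gave 10 genes of 13656 and 28 transcript rows of 26309.

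RNA was sequenced from pooled heads of female flies aged 5 days. All flies carried the neuronal driver Elav, and each genotype used it for 1 transgene: PR36, a repeat of the dipeptide proline-arginine (2 libraries), (G4C2)36, the GGGGCC repeat whose expansion in C9orf72 causes amyotrophic lateral sclerosis and frontotemporal dementia (2 libraries), an RNAi construct against UPF1, a helicase of nonsense-mediated mRNA decay (1 library, with the other not analysed here), and PA36, a proline-alanine repeat that the labels name as the control (2 libraries). There is no fly without a transgene among the samples, so every value is relative to a head that makes PA36. The transgenes act in neurons while the heads also hold glia, fat body and muscle, and in such bulk samples fewer cells of a type and less RNA per cell cannot be told apart. Whether replicates were separate cultures is not in the labels, and the p-values below then rest on a spread that may be technical.

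In autophagy the Atg1 kinase complex starts the process, vesicles that carry Atg9 supply membrane, and Atg18a binds the lipid phosphatidylinositol 3-phosphate on it. Atg7 activates the ubiquitin-like proteins Atg8 and Atg12, Atg12 is joined to Atg5, and Atg8a is then attached to the growing membrane, where receptors such as ref(2)P, the fly counterpart of p62, dock with their cargo. In neurons, where cells are not replaced, loss of these genes is known to let ubiquitylated protein accumulate, and dipeptide repeats made from the C9orf72 repeat form inclusions that contain p62.

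Levels are given in TPM, which divides reads by transcript length and scales them to a fixed library total, and gene values are sums over a gene's listed transcripts. Such values keep no read number, and counting intervals could not be given at unknown depth. The listed TPM summed to between 712972 and 877933 per library, highest in (G4C2)36 replicate 1. Markers of neurons, photoreceptors, glia, fat body, muscle and hemocytes were all found, 5 of 5 for neurons with a summed level between 896.8 and 1257 TPM, and the 4 ovary germline markers were not analysed here. The target gene Upf1 had 11.3 TPM in the UPF1 RNAi library, between the 10.3 and 19.1 TPM of the PA36 libraries (log2 fold change -0.29, SE 0.38, limma adjusted p = 0.96), so the level of the targeted gene does not check that label. Summed TPM of 11 heat shock genes were 6760 in PR36 replicate 1 and 5286 in PA36 replicate 1, against 87.28 to 504.4 in the other 5 libraries.

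No gene of the 10 was called in any comparison. Calls were made with limma on log2(TPM + 1) at a Benjamini-Hochberg adjusted p below 0.05 over the 9287 genes that averaged 1 TPM or more, and 9 of the 10 genes passed that filter. In PR36 against PA36, 0 of 9 were called, where 0.194% of all tested genes were. In (G4C2)36 against PA36, 0 of 9 were called, where 0.388% of all tested genes were. In UPF1 RNAi against PA36, 0 of 9 were called, where 0.625% of all tested genes were, and in PR36 against (G4C2)36, 0 of 9, where 0.237% were. A count of 0 among 9 is close to these shares. At an unadjusted p below 0.05 the count was also 0 in each comparison, where 3.39% of all tested genes passed in PR36, 6.75% in (G4C2)36, 6.4% in UPF1 RNAi and 5.25% in PR36 against (G4C2)36, and the smallest unadjusted limma p was 0.12, for Atg8a in (G4C2)36.

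**Figure D1:**
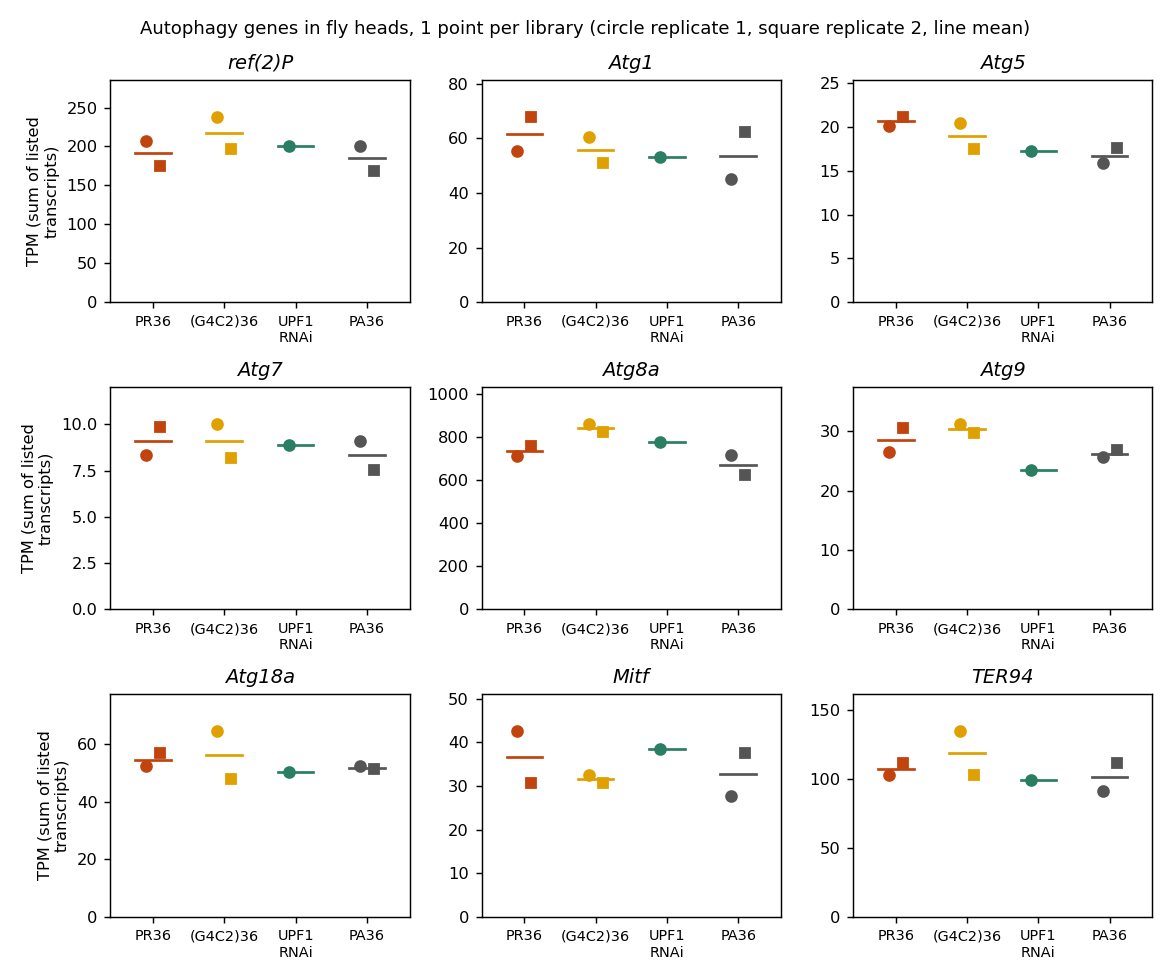
TPM per gene (y axes from 0, summed over listed transcripts) in each library of PR36, (G4C2)36, UPF1 RNAi and PA36. Circles are replicate 1, squares replicate 2, and lines the mean of a genotype; the panels show Atg8a between 628 and 862 TPM with both (G4C2)36 libraries on top, and overlapping libraries for most genotypes of the 8 other genes. Atg8b, at or near 0, is not drawn.

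The main fit gives a rough bound on the size of change. All 27 of the 95% intervals for the log2 fold changes against PA36 held 0, and 0 of them reached a 2-fold change in either direction. In linear terms the bounds ran from 0.596-fold, the lower bound of Atg9 in UPF1 RNAi, to 1.97-fold, the upper bound of Mitf in UPF1 RNAi. Changes of the 9 genes within these bounds remain compatible with the data. The intervals are not adjusted for their number, share the PA36 libraries and rest on a spread pooled over genotypes. The bounds hold for the main fit only. Without PA36 replicate 2, the log2 fold change of Atg1 in PR36 was 0.428 in place of 0.204, with a larger SE.

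Atg1 (chromosome 3L, 12784429 to 12805116, minus strand, BDGP6) encodes the serine-threonine kinase that starts autophagy. It stood at 55.2 and 67.9 TPM in the PR36 libraries, 60.3 and 50.9 TPM in (G4C2)36, 53.1 TPM in UPF1 RNAi, and 45.3 and 62.1 TPM in PA36. The PA36 libraries were farther apart than the genotype means, and the libraries of every neighbouring pair of genotypes in the order of means overlapped. Against PA36, its log2 fold change was 0.20 in PR36 (SE 0.24, limma adjusted p = 1), 0.06 in (G4C2)36 (SE 0.24, adjusted p = 0.98) and 0 in UPF1 RNAi (SE 0.30, adjusted p = 1).

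Atg9 (2R, 16294400 to 16297232, plus strand) encodes the multi-pass membrane protein of the seeding vesicles. It stood at 26.4 and 30.5 TPM in the PR36 libraries, 31.2 and 29.6 TPM in (G4C2)36, 23.4 TPM in UPF1 RNAi, and 25.6 and 26.8 TPM in PA36. Both (G4C2)36 libraries lay above both PA36 libraries and the UPF1 RNAi library lay below them, while PR36 overlapped with PA36. The log2 fold changes were 0.11 in PR36 (SE 0.20, adjusted p = 1), 0.21 in (G4C2)36 (SE 0.20, adjusted p = 0.91) and -0.16 in UPF1 RNAi (SE 0.25, adjusted p = 0.96).

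Atg18a (3L, 8186857 to 8191118, plus strand) encodes a protein of the WIPI family that binds the membrane lipid. It stood at 52.4 and 57.0 TPM in the PR36 libraries, 64.6 and 48.0 TPM in (G4C2)36, 50.4 TPM in UPF1 RNAi, and 52.4 and 51.3 TPM in PA36. The 2 PA36 libraries were close together and the 2 (G4C2)36 libraries lay on either side of them. The log2 fold change was 0.07 in PR36 (SE 0.22, adjusted p = 1), 0.10 in (G4C2)36 (SE 0.22, adjusted p = 0.96) and -0.04 in UPF1 RNAi (SE 0.27, adjusted p = 1).

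Among the conjugation genes, Atg5 (X, 7314622 to 7323770, minus strand) encodes the partner of Atg12 in the complex that attaches Atg8. It stood at 20.2 and 21.2 TPM in the PR36 libraries, 20.5 and 17.5 TPM in (G4C2)36, 17.3 TPM in UPF1 RNAi, and 15.9 and 17.6 TPM in PA36. Both PR36 libraries were above both PA36 libraries, and the (G4C2)36 libraries overlapped with PA36. On the log2 scale, the fold change in PR36 was 0.29 (SE 0.21, adjusted p = 1), which was the largest of the 9 genes in that comparison. It was 0.17 in (G4C2)36 (SE 0.21, adjusted p = 0.93) and 0.05 in UPF1 RNAi (SE 0.26, adjusted p = 1).

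Atg7 (2R, 18620466 to 18625044, minus strand) encodes the E1-like enzyme that activates Atg8 and Atg12. It had the lowest level of the 9 tested genes, at 8.33 and 9.85 TPM in the PR36 libraries, 10.02 and 8.17 TPM in (G4C2)36, 8.86 TPM in UPF1 RNAi, and 9.12 and 7.55 TPM in PA36. The libraries of all genotypes overlapped. The log2 fold change was 0.11 in PR36 (SE 0.25, adjusted p = 1), 0.11 in (G4C2)36 (SE 0.25, adjusted p = 0.96) and 0.08 in UPF1 RNAi (SE 0.31, adjusted p = 0.99).

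Atg8a (X, 10764878 to 10768338, minus strand) encodes the ubiquitin-like protein of the LC3 and GABARAP family that coats the autophagosome. It was by far the most abundant of the 10, ranked 161 of 13656 genes by mean TPM, above 98.8% of them. It stood at 715.4 and 762 TPM in the PR36 libraries, 862 and 824 TPM in (G4C2)36, 778 TPM in UPF1 RNAi, and 717 and 628 TPM in PA36. Both (G4C2)36 libraries were the highest of all 7, the UPF1 RNAi library came next, and PR36 overlapped with PA36. Relative to PA36, the log2 fold change in (G4C2)36 was 0.33 (SE 0.18, 95% interval -0.10 to 0.76, adjusted p = 0.84), the largest of the 27 against PA36. It was 0.14 in PR36 (SE 0.18, adjusted p = 1) and 0.21 in UPF1 RNAi (SE 0.23, adjusted p = 0.96). In PR36 against (G4C2)36 both PR36 libraries lay below both (G4C2)36 libraries, at a log2 fold change of -0.19 (SE 0.18, adjusted p = 1).

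Summed markers of glia, muscle and neurons stood higher in both (G4C2)36 libraries than in both PA36 libraries. For neurons the margin was narrow, at 1188 TPM in (G4C2)36 replicate 1 against 1181 TPM in PA36 replicate 2. Those of photoreceptors, fat body and hemocytes overlapped between these genotypes. Among single genes, elav, nSyb and brp of the neuronal list overlapped as well, as did repo and Eaat1 of glia and Act88F of muscle. Summed TPM of the 5 glial markers were 1348 and 1678 in PR36, 1759 and 1679 in (G4C2)36, 1191 in UPF1 RNAi, and 1092 and 1134 in PA36. All libraries of PR36, (G4C2)36 and UPF1 RNAi thus stood above both PA36 libraries, and the UPF1 RNAi library lay below both PR36 libraries. The 5 muscle markers summed to 993.5 and 1039 TPM in the PR36 libraries, 1503 and 1239 TPM in (G4C2)36, 694 TPM in UPF1 RNAi, and 899 and 703 TPM in PA36, with both (G4C2)36 libraries highest and the UPF1 RNAi library lowest of the 7. For muscle, both PR36 libraries also lay above both PA36 libraries. None of these markers was at 0 in every library. The part of these cell types in the Atg8a and Atg9 values was not tested.

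Atg8b (3R, 17724410 to 17725063, minus strand), a second Atg8 gene known in flies mainly from the male germline, was close to absent from these female heads. It was listed at 0.0686 and 0.0648 TPM in the PR36 libraries, at 0 and 0.456 TPM in (G4C2)36, at 0 TPM in UPF1 RNAi, and at 0.381 and 0 TPM in PA36. It was listed at 0 in 3 of 7 libraries, fell below the filter and was not tested. Atg8a and Atg8b are related genes, and the sources used here do not say how reads that match both were shared.

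The cargo receptor gene ref(2)P (2L, 19542468 to 19545548, plus strand) was the second most abundant of the 10. It stood at 207 and 176 TPM in the PR36 libraries, 238 and 197 TPM in (G4C2)36, 201 TPM in UPF1 RNAi, and 201 and 168 TPM in PA36. Replicate 1 was the higher library in PR36, (G4C2)36 and PA36, and the genotypes overlapped. The log2 fold change was 0.05 in PR36 (SE 0.21, 95% interval -0.45 to 0.55, adjusted p = 1), 0.24 in (G4C2)36 (SE 0.21, 95% interval -0.27 to 0.74, adjusted p = 0.90) and 0.13 in UPF1 RNAi (SE 0.26, adjusted p = 0.97). Its exons share 173 bases with CG10337 on the opposite strand, which averaged 1.53 TPM, and the sources used here do not say whether counting used strand.

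Mitf (chromosome 4, 1198852 to 1224467, plus strand) encodes the fly counterpart of TFEB, the transcription factor that induces lysosome and autophagy genes in mammals. It stood at 42.5 and 30.8 TPM in the PR36 libraries, 32.5 and 30.7 TPM in (G4C2)36, 38.4 TPM in UPF1 RNAi, and 27.8 and 37.5 TPM in PA36. The UPF1 RNAi library was above both PA36 libraries by a narrow margin, and the 2 PR36 libraries differed 1.38-fold from each other. Against PA36, the log2 fold change was 0.16 in PR36 (SE 0.25, adjusted p = 1), -0.03 in (G4C2)36 (SE 0.25, adjusted p = 0.99) and 0.24 in UPF1 RNAi (SE 0.31, adjusted p = 0.96).

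TER94 (2R, 9989159 to 9993559, plus strand) encodes the counterpart of VCP, the AAA ATPase in which inherited variants cause amyotrophic lateral sclerosis in humans. It stood at 103 and 112 TPM in the PR36 libraries, 135 and 103 TPM in (G4C2)36, 99.7 TPM in UPF1 RNAi, and 91.2 and 112 TPM in PA36. Only (G4C2)36 replicate 1 stood apart from the rest, and its partner library lay within the PA36 range. The log2 fold change was 0.09 in PR36 (SE 0.22, adjusted p = 1), 0.22 in (G4C2)36 (SE 0.22, adjusted p = 0.91) and -0.02 in UPF1 RNAi (SE 0.27, adjusted p = 1). The table carries an older gene ID for TER94, and its coordinates were matched through its transcripts.

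**Figure D2:**
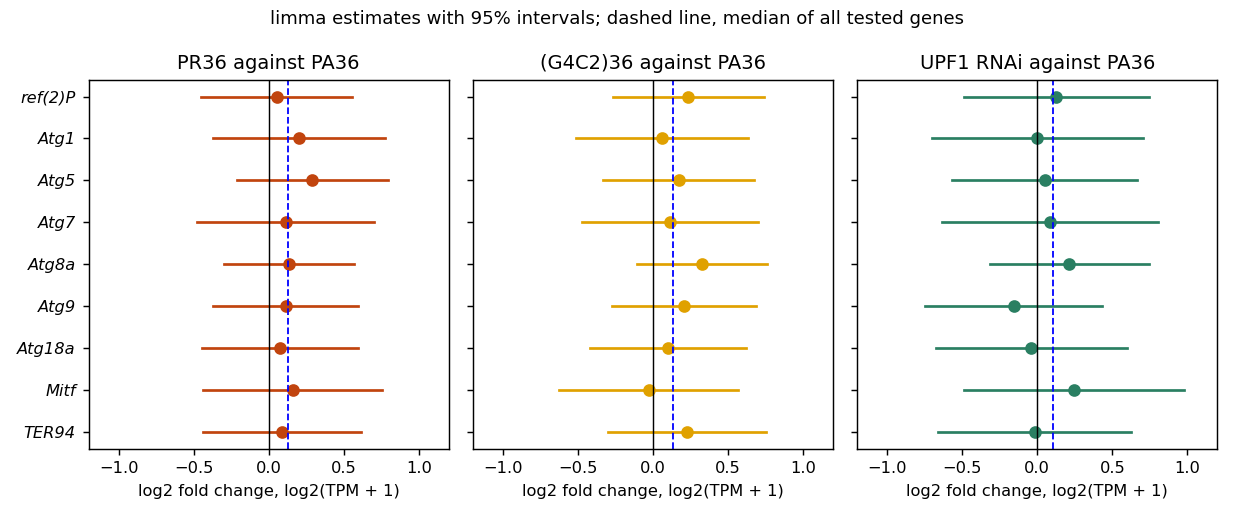
limma log2 fold change against PA36 (x axis, on log2(TPM + 1)) of the 9 tested genes (rows), with 95% intervals, for PR36, (G4C2)36 and UPF1 RNAi. Every interval crosses 0 (solid line), and the points lie around the median of all 9287 tested genes (dashed line, 0.13 in PR36, 0.13 in (G4C2)36 and 0.10 with UPF1 RNAi).

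Read as a group, the 9 genes had medians close to those of all tested genes. In PR36 all 9 log2 fold changes were above 0, with a median of 0.11, where 72.5% of all tested genes were above 0 and their median was 0.13. In (G4C2)36, 8 of 9 were above 0 with a median of 0.17, where 69% of all tested genes were and their median was 0.13. In UPF1 RNAi, 6 of 9 were above 0 with a median of 0.05, where 62.1% of all tested genes were and their median was 0.10. In PR36 against (G4C2)36, 4 of 9 were above 0, where 49.7% of all tested genes were. The 3 comparisons share the PA36 libraries, so their directions are not independent of each other.

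The shift above 0 was smaller on another scale. With the libraries rescaled by medians of ratios, 4 of 9 genes were above 0 in PR36, 5 of 9 in (G4C2)36 and 3 of 9 with UPF1 RNAi, with medians of -0.004, 0.05 and -0.04. The medians of all tested genes were then 0.007, 0.01 and 0.02 in these comparisons. After rescaling, the log2 fold change of Atg8a in (G4C2)36 was 0.20 (SE 0.17, adjusted p = 0.75), that of Atg5 in PR36 was 0.17 (SE 0.11, adjusted p = 0.99) and that of Atg9 in (G4C2)36 was 0.08 (SE 0.14, adjusted p = 0.89). Rescaling moves all genes of a comparison by nearly the same amount, so positive differences smaller than that amount changed sign by construction.

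Few genes had libraries that did not overlap between genotypes, and their counts were close to or under the shares of all tested genes. In PR36 it was 1 of 9 above PA36, Atg5, where 27% of all tested genes were, and 0 of 9 below, where 6.72% were. In (G4C2)36 it was 2 of 9 above, Atg8a and Atg9, where 24.2% were, and 0 of 9 below, where 8.21% were. With 1 UPF1 RNAi library it was 2 of 9 above, Atg8a and Mitf, where 45% were, and 2 of 9 below, Atg9 and Atg18a, where 25.9% were. In PR36 against (G4C2)36 it was 1 of 9 below, Atg8a, where 13.3% were.

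Libraries differed more by replicate than by genotype for most of these genes. In 6 of 9 genes the widest ratio between 2 libraries of 1 genotype was larger than the ratio between the highest and lowest genotype mean, and the exceptions were Atg5, Atg8a and Atg9. (G4C2)36 replicate 1, which also had the largest listed total, held the highest value for 6 of 9 genes. PA36 replicate 1 held the lowest value for 4 of 9 and PA36 replicate 2 for 3 of 9. The share of the 10 genes in the listed total, in parts per 1000000, was 1653 and 1542 in PR36, 1656 and 1702 in (G4C2)36, 1781 in UPF1 RNAi, and 1549 and 1484 in PA36. Atg8a alone made up between 56.5% and 62.9% of that sum in every library.

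Below the gene level, 18 of the 28 transcript rows reached a mean of 1 TPM and were tested with all 15794 such transcripts. Of the 18, 0 were called in PR36, where 0.317% of all tested transcripts were, 0 in (G4C2)36, where 0.298% were, 0 in UPF1 RNAi, where 0.639% were, and 0 in PR36 against (G4C2)36, where 0.443% were. At an unadjusted p below 0.05 the count was also 0 in each, where 4.11%, 6.81%, 6.82% and 5.6% of all tested transcripts were, in the same order of comparisons. In several genes 1 transcript carried nearly all the expression. The lowest share over the 7 libraries was 99.7% for FBtr0071498 of Atg8a, 99.5% for FBtr0081253 of ref(2)P and 98.5% for FBtr0088391 of TER94. The remaining 2 Atg8a transcripts start at other sites and encode 96 and 107 residues in place of 121, so the head transcript is the 121-residue form.

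**Figure D3:**
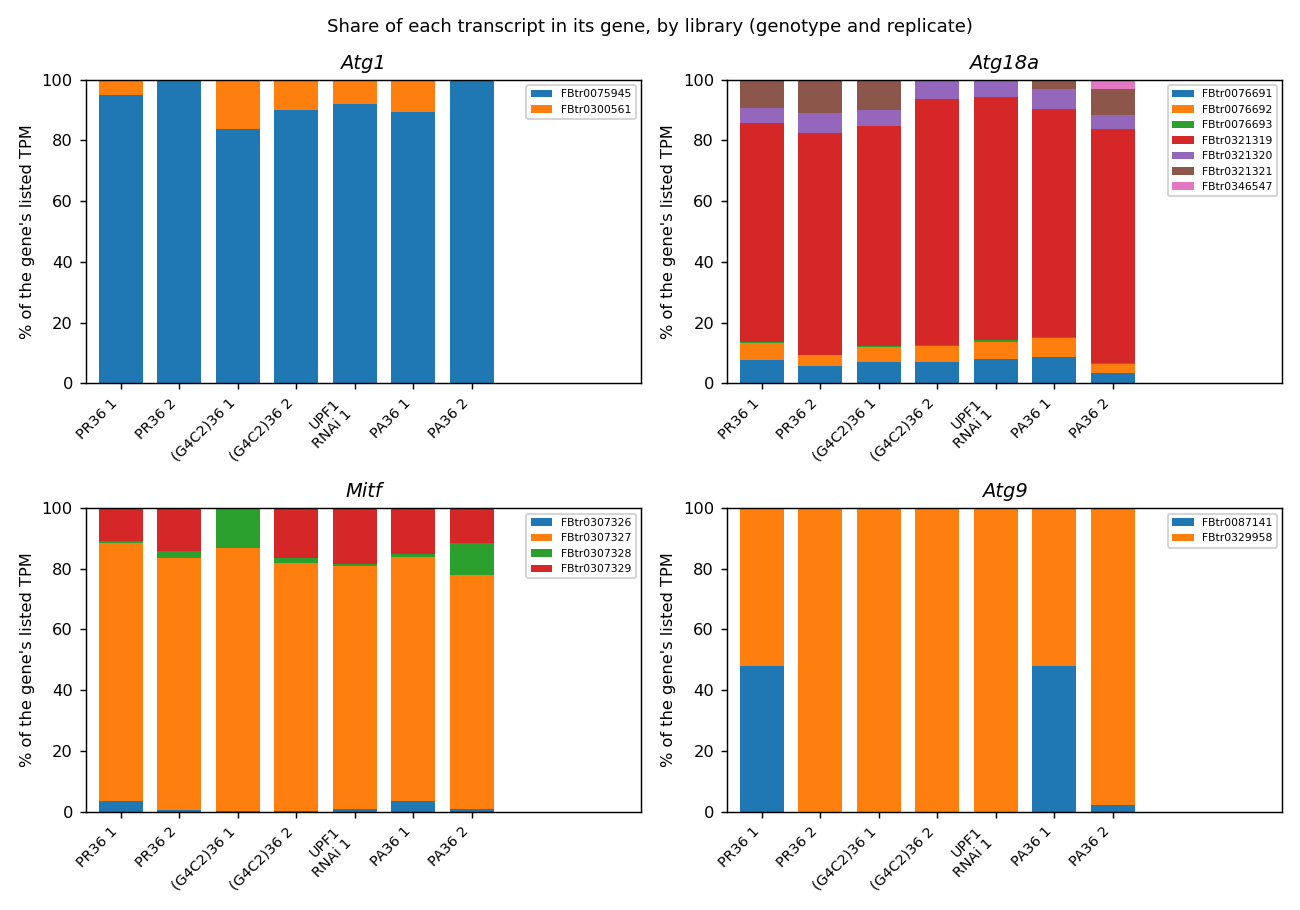
Share of each listed transcript in its gene's TPM (y axis, %) per library, for Atg1, Atg18a, Mitf and Atg9. Shares differ between replicates of 1 genotype; for Atg9 the transcript FBtr0087141 holds 47.8% in PR36 replicate 1 and 47.9% in PA36 replicate 1 and at most 2.19% elsewhere.

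Atg1 has a main transcript, FBtr0075945, and a second, FBtr0300561, that has 60 more coding bases and a 3′ untranslated region of 206 in place of 908 bases. FBtr0300561 stood at 2.87 and 0.239 TPM in the PR36 libraries, 9.84 and 5.06 TPM in (G4C2)36, 4.16 TPM in UPF1 RNAi, and 4.75 and 0.305 TPM in PA36. Both (G4C2)36 libraries were the highest of the 7 and replicate 2 of PR36 and of PA36 were the lowest. On the log2 scale, the fold change of this transcript was 1.57 in (G4C2)36 against PA36 (SE 0.93, adjusted p = 0.82) and -1.89 in PR36 against (G4C2)36 (SE 0.93, adjusted p = 0.98). Its share of Atg1 ran from 0.353% to 16.3% over the libraries.

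Mitf has 4 listed transcripts that differ in their first exon, in an internal coding exon and in a 3′ untranslated region of 659 or 1676 bases. The main one, FBtr0307327, held between 77.0% and 86.9% of the gene. FBtr0307329, which has the long region, stood at 4.60 and 4.31 TPM in the PR36 libraries, 0.0097 and 5.09 TPM in (G4C2)36, 7.08 TPM in UPF1 RNAi, and 4.22 and 4.35 TPM in PA36. It was highest in UPF1 RNAi and close to 0 in (G4C2)36 replicate 1 alone. In UPF1 RNAi against PA36 its log2 fold change was 0.61 (SE 1.05, adjusted p = 0.96). FBtr0307328, with a start site 20182 bases downstream, held 13.0% of Mitf in (G4C2)36 replicate 1 and 10.49% in PA36 replicate 2, and at most 2.52% in the other 5 libraries.

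Atg18a is spread over 7 transcripts, and FBtr0321319, which encodes 435 residues, held between 72.2% and 81.2% of it. FBtr0321321, which encodes 372 residues, stood at 4.86 and 6.20 TPM in the PR36 libraries, 6.33 and 0 TPM in (G4C2)36, 0 TPM in UPF1 RNAi, and 1.57 and 4.36 TPM in PA36. It was highest in both PR36 libraries and (G4C2)36 replicate 1, and listed at 0 in 2 libraries. Atg7 has a shorter transcript, FBtr0086711, that lacks 522 coding bases and was listed at 0.268 TPM in UPF1 RNAi and at 0 TPM in the 6 other libraries. At that level it was not tested.

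**Figure D4:**
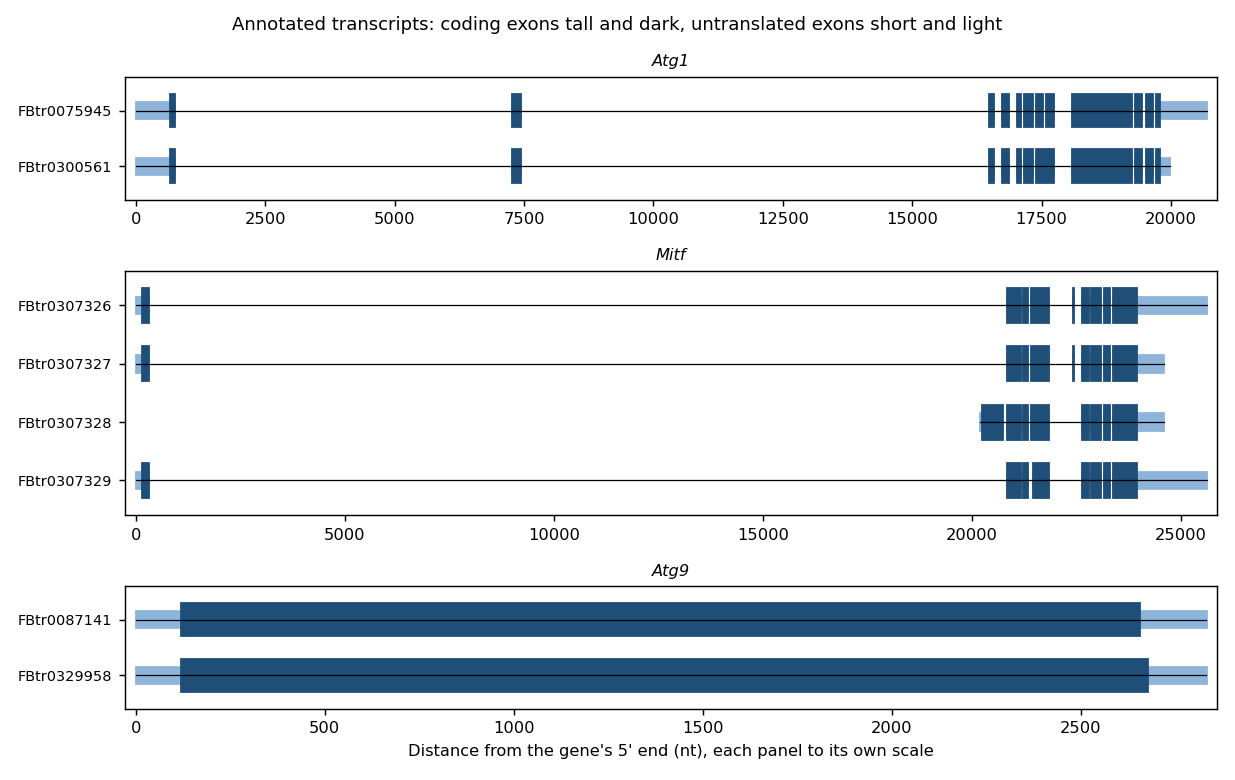
Annotated transcripts of Atg1, Mitf and Atg9, drawn to scale within each panel as distance from the gene's 5′ end in nucleotides (x axis), with coding exons tall and dark and untranslated exons short and light. The 2 Atg9 transcripts have the same exon of 2833 bases and differ only in where the coding sequence is annotated to end.

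The transcript rows of Atg9 cannot be read separately. FBtr0087141 and FBtr0329958 each consist of the same exon of 2833 bases in the BDGP6 annotation used here, with 0 exonic bases of difference, and their coding sequences end 21 bases apart. FBtr0087141 was listed at 12.6 and 0 TPM in the PR36 libraries, 0 and 0.00077 TPM in (G4C2)36, 0 TPM in UPF1 RNAi, and 12.3 and 0.585 TPM in PA36. The 2 libraries with the even division between both rows, PR36 replicate 1 and PA36 replicate 1, are those with the high heat shock sums. No read can tell these transcripts apart, so the Atg9 values above use the sum alone.

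The wider autophagy machinery was read from 8 lists with 61 symbols, of which 54 had a row and all 54 were tested. Of these 54 genes, 0 were called in any comparison, where the shares of all tested genes were 0.194% in PR36, 0.388% in (G4C2)36, 0.625% in UPF1 RNAi and 0.237% in PR36 against (G4C2)36. At an unadjusted p below 0.05 there were 2 in PR36, 0 in (G4C2)36, 1 in UPF1 RNAi and 1 in PR36 against (G4C2)36, where 3.39%, 6.75%, 6.4% and 5.25% of all tested genes passed in the same order. Above 0 were 44 of 54 in PR36, 38 of 54 in (G4C2)36 and 33 of 54 with UPF1 RNAi, with medians of 0.14, 0.14 and 0.08. Of all tested genes, 72.5%, 69% and 62.1% were above 0 in these comparisons, with medians of 0.13, 0.13 and 0.10, so the lists lay close to the shift of all genes. In PR36 against (G4C2)36, 25 of 54 were above 0, with a median of -0.006, where 49.7% of all tested genes were above 0. Every library lay above PA36 in 18 of 54 genes in PR36, 13 in (G4C2)36 and 24 with UPF1 RNAi. The shares of all tested genes were 27%, 24.2% and 45%. Every library lay below PA36 in 1, 3 and 13 of 54, where 6.72%, 8.21% and 25.9% of all tested genes did. Genes of these lists are named below because their libraries do not overlap in a comparison, so that separation is not a result.

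**Figure D5:**
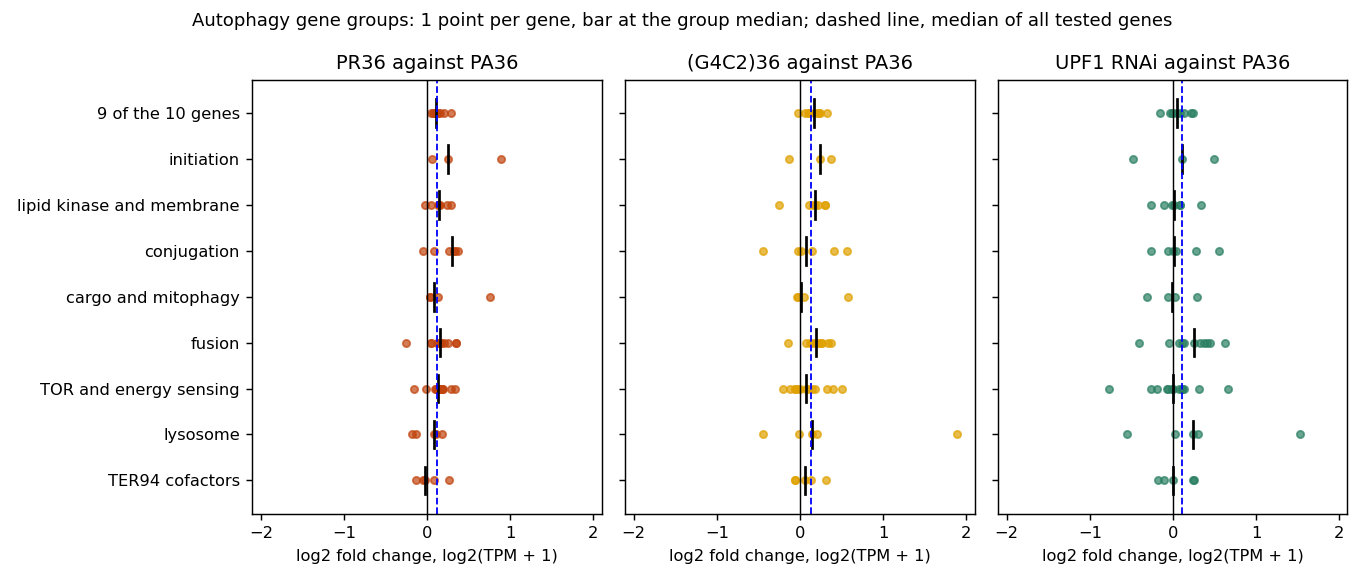
log2 fold change against PA36 (x axis, on log2(TPM + 1)) of each tested gene, by list (rows), in PR36, (G4C2)36 and UPF1 RNAi. Black bars are the medians of a list and the dashed line the median of all 9287 tested genes; the initiation point at 0.90 in PR36 is Atg17, and the lysosome points farthest to the right in (G4C2)36 and UPF1 RNAi are Trpml, whose position rests on a value listed at 0 in PA36 replicate 2 and is not read as a fold change.

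In the initiation list (3 of 3 tested, 0 called), Atg17, the scaffold of the Atg1 complex and counterpart of FIP200, stood apart in PR36. It stood at 42.4 and 37.5 TPM in the PR36 libraries, 19.5 and 18.8 TPM in (G4C2)36, 14.8 TPM in UPF1 RNAi, and 19.9 and 22.1 TPM in PA36. Both PR36 libraries were well above the other 5, which ran from 14.8 TPM in UPF1 RNAi to 22.1 TPM in PA36 replicate 2. The UPF1 RNAi library lay below both PA36 libraries, at a log2 fold change of -0.48. The log2 fold change was 0.90 in PR36 against PA36 (SE 0.21, adjusted p = 0.44) and 1.02 in PR36 against (G4C2)36 (SE 0.21, adjusted p = 0.23), neither of which passed the adjustment over all genes. Atg101, another subunit of that complex, stood at 45.4 and 54.5 TPM in the PR36 libraries, 57.8 and 50.7 TPM in (G4C2)36, 58.6 TPM in UPF1 RNAi, and 41.0 and 41.9 TPM in PA36. All 5 libraries of the other genotypes were above PA36, and its largest log2 fold change was 0.49 in UPF1 RNAi (SE 0.25, adjusted p = 0.87). Atg13, which bridges the kinase and the scaffold, had a log2 fold change of 0.24 in (G4C2)36 (SE 0.21, adjusted p = 0.89).

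In the list of lipid kinase and membrane genes (7 of 7 tested genes not called), log2 fold changes ran from -0.03 to 0.29 in PR36, -0.25 to 0.30 in (G4C2)36 and -0.27 to 0.34 in UPF1 RNAi. Atg2, which carries lipid to the growing membrane, stood at 33.9 and 26.0 TPM in the PR36 libraries, 30.7 and 31.4 TPM in (G4C2)36, 24.8 TPM in UPF1 RNAi, and 23.4 and 26.7 TPM in PA36. Pi3K59F, the lipid kinase Vps34, stood at 20.0 and 20.8 TPM in the PR36 libraries, 18.4 and 14.8 TPM in (G4C2)36, 16.2 TPM in UPF1 RNAi, and 18.7 and 20.8 TPM in PA36. Atg2 was higher and Pi3K59F lower in both (G4C2)36 libraries than in PA36, with adjusted p = 0.87 and adjusted p = 0.89. The medians of the list were 0.15, 0.18 and 0.02.

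In the conjugation list (6 of 6 tested, 0 called) the protease genes Atg4a and Atg4b, whose products process Atg8, had the highest log2 fold changes in (G4C2)36, and Atg4b the highest in PR36. Atg4b stood at 19.8 and 22.8 TPM in the PR36 libraries, 24.1 and 19.6 TPM in (G4C2)36, 24.3 TPM in UPF1 RNAi, and 14.6 and 17.9 TPM in PA36. All 5 libraries of the other genotypes were above both PA36 libraries, and the log2 fold change was 0.37 in PR36 (SE 0.23, adjusted p = 1), 0.41 in (G4C2)36 (SE 0.23, adjusted p = 0.84) and 0.56 in UPF1 RNAi (SE 0.28, adjusted p = 0.85). Atg4a summed to 20.6 and 21.7 TPM in the PR36 libraries, 20.7 and 30.8 TPM in (G4C2)36, 13.8 TPM in UPF1 RNAi, and 14.1 and 19.8 TPM in PA36. Its log2 fold change was 0.33 in PR36 (SE 0.28, adjusted p = 1) and 0.57 in (G4C2)36 (SE 0.28, adjusted p = 0.80).

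The Atg4a sum holds the only called transcript among the 88 tested rows of these lists. In PR36 1 of 88 was called, where 0.317% of all tested transcripts were, and in (G4C2)36 1 of 88, where 0.298% were. In UPF1 RNAi 0 of 88 were called, where 0.639% were, and in PR36 against (G4C2)36 0 of 88, where 0.443% were. FBtr0332569 was listed at 15.0 and 17.7 TPM in the PR36 libraries, 14.8 and 9.75 TPM in (G4C2)36, 0 TPM in UPF1 RNAi, and 0 TPM in both PA36 libraries. It was thus listed above 0 in the 4 libraries of PR36 and (G4C2)36 and at 0 in the other 3. Its partner FBtr0077953 stood at 5.61 and 3.98 TPM in the PR36 libraries, 5.95 and 21.0 TPM in (G4C2)36, 13.8 TPM in UPF1 RNAi, and 14.1 and 19.8 TPM in PA36. FBtr0332569 has 2002 exonic bases that FBtr0077953 lacks, and FBtr0077953 only 3 that FBtr0332569 lacks. The division of the Atg4a sum between these rows is thus an estimate, and an exact 0 can be a failed one. FBtr0332569 passed in PR36 (limma adjusted p = 0.029) and in (G4C2)36 (adjusted p = 0.034), and no fold is given against a group listed at 0. Its mean met the filter only through the PR36 and (G4C2)36 libraries. The PA36 values at 0 show no spread, so these p-values are not read as support for a change. It was noted after its values were seen.

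The 2 Atg4a transcripts (2L, from 1080911, plus strand, ending at 1085380 for FBtr0332569 and at 1083378 for FBtr0077953) encode nearly the same protein. FBtr0332569 lacks 3 coding bases at the start of the last exon and has a 3′ untranslated region of 2509 in place of 507 bases. Of its 4075 bases, 2098 lie in exons of CG4629 on the opposite strand, which stood at 30.2 and 39.0 TPM in the PR36 libraries, 53.1 and 38.6 TPM in (G4C2)36, 46.9 TPM in UPF1 RNAi, and 17.7 and 40.9 TPM in PA36. Reads from CG4629 and from this long end can be told apart only with strand, whose use is not given, and the part of CG4629 in the result was not tested. The call held in 3 of 12 alternative settings in each comparison, and it was lost when any PR36, (G4C2)36 or PA36 library was left out (adjusted p between 0.085 and 0.12 in PR36, and between 0.058 and 0.12 in (G4C2)36).

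Among cargo and mitophagy genes (4 of 4 tested, 0 called), bchs, which encodes the counterpart of the aggregate adaptor ALFY, stood at 11.1 and 18.5 TPM in the PR36 libraries, 12.7 and 12.5 TPM in (G4C2)36, 10.1 TPM in UPF1 RNAi, and 7.42 and 8.84 TPM in PA36. Every library of the other genotypes was above PA36. Relative to PA36, the log2 fold change was 0.75 in PR36 (SE 0.29, adjusted p = 1), 0.58 in (G4C2)36 (SE 0.29, adjusted p = 0.82) and 0.29 in UPF1 RNAi (SE 0.35, adjusted p = 0.96).

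Of the 11 tested genes for fusion with the lysosome, 0 were called, and 10 were above 0 in PR36, 10 in (G4C2)36 and 9 with UPF1 RNAi, with medians of 0.16, 0.19 and 0.25. Most genes of the whole table were above 0 as well, at 72.5%, 69% and 62.1% in these comparisons. The largest difference in UPF1 RNAi was that of lt, the Vps41 subunit of the HOPS tethering complex. It stood at 34.3 and 35.4 TPM in the PR36 libraries, 40.9 and 30.4 TPM in (G4C2)36, 42.4 TPM in UPF1 RNAi, and 24.0 and 30.7 TPM in PA36. Its log2 fold change in UPF1 RNAi was 0.63 (SE 0.29, adjusted p = 0.83). Rab7, the GTPase of late endosomes, was the most abundant gene of the list named here, at 277 and 318 TPM in the PR36 libraries, 363 and 318 TPM in (G4C2)36, 300.1 TPM in UPF1 RNAi, and 296 and 276 TPM in PA36. Syx17, the SNARE of the autophagosome, had a log2 fold change of 0.19 in (G4C2)36 (SE 0.19, adjusted p = 0.92).

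Of the 13 tested genes for TOR and energy sensing, the pathway that restrains autophagy in fed cells, 0 were called. Thor, the translation inhibitor 4E-BP that TOR inactivates, stood at 721 and 645 TPM in the PR36 libraries, 466 and 647 TPM in (G4C2)36, 372 TPM in UPF1 RNAi, and 755 and 533 TPM in PA36. The UPF1 RNAi library was the lowest of the 7, at a log2 fold change of -0.77 (SE 0.31, adjusted p = 0.76). RagC-D, a GTPase that recruits TOR to the lysosome, had log2 fold changes of 0.34 in PR36 (SE 0.22, adjusted p = 1) and 0.33 in (G4C2)36 (SE 0.22, adjusted p = 0.87). The medians of the list were 0.14 in PR36, 0.08 in (G4C2)36 and -0.003 with UPF1 RNAi.

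Of the 5 tested lysosome genes 0 were called, and they did not share a direction. Lamp1, a membrane protein of the lysosome, stood at 369 and 379 TPM in the PR36 libraries, 382 and 398 TPM in (G4C2)36, 416 TPM in UPF1 RNAi, and 359 and 344 TPM in PA36. The lysosomal efflux transporter gene spin stood at 77.7 and 88.9 TPM in the PR36 libraries, 82.7 and 53.5 TPM in (G4C2)36, 61.5 TPM in UPF1 RNAi, and 90.6 and 91.1 TPM in PA36. All 5 libraries of the other genotypes were above PA36 for Lamp1 and below it for spin, a separation that was part of the rule for naming them. The log2 fold changes in UPF1 RNAi were 0.24 (SE 0.22, adjusted p = 0.96) for Lamp1 and -0.56 (SE 0.31, adjusted p = 0.92) for spin.

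Trpml, which encodes a lysosomal calcium channel, was listed at 12.9 and 0 TPM in the PR36 libraries, 11.6 and 12.0 TPM in (G4C2)36, 9.01 TPM in UPF1 RNAi, and 11.04 and 0 TPM in PA36. It was at 0 in replicate 2 of PR36 and of PA36 and between 9.01 and 12.9 TPM in the other libraries. An exact 0 in such a table can be a failed estimate, so no fold is given in the text.

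Of the 5 tested cofactors of TER94, 0 were called. Ufd1-like, which recruits ubiquitylated substrates to TER94, stood at 34.2 and 42.1 TPM in the PR36 libraries, 45.7 and 33.9 TPM in (G4C2)36, 31.6 TPM in UPF1 RNAi, and 30.4 and 32.6 TPM in PA36. Its log2 fold change was 0.26 in PR36 (SE 0.24, adjusted p = 1) and 0.31 in (G4C2)36 (SE 0.24, adjusted p = 0.87). The medians of the list were -0.02 in PR36, 0.06 in (G4C2)36 and 0.003 with UPF1 RNAi.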

How the data were processed

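Per the labels, RNA from fly heads was sequenced in 4 genotypes. Per the submitters' processing notes, bcl2fastq, HISAT and HISAT2 2.1 were used with the build BDGP6; no source used here gives the quantifier, its annotation or its use of strand. A table of TPM per transcript is what the authors deposited. Its header holds 10 names and its lines 11 cells, so names were read from the left and 1 unnamed value column was not used. If the names were shifted against the cells, all library labels would shift with them.

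TPM were summed per gene and analysed as log2(TPM + 1), which understates changes of low genes. limma 3.58.1 in R 4.3.3 was fitted with a trend, on all 7 libraries and 1 coefficient per genotype, two-sided, with a mean of at least 1 TPM as filter (residual degrees of freedom 3, prior 4.14 for genes and 2.03 for transcripts). UPF1 RNAi, with 1 library, borrows the spread of the other genotypes. The model was tested on simulated data with independent normal noise, in which no change smaller than 2-fold was placed. Its power for smaller changes was not tested. Every one of the 10 genes is named; from the wider lists, named genes come from those called or from up to 3 per list and comparison with the largest change among genes whose libraries do not overlap and whose higher genotype reaches a mean of 5 TPM. The genes and lists were chosen with earlier results of these data known. Coordinates are 1-based BDGP6 positions from the Ensembl annotation. Joins and figures used Python 3.11.15, pandas 2.3.3, numpy 2.4.6 and matplotlib 3.10.9.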

Additional observations from a re-analysis of the deposited data

Results flagged for a closer look

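Atg9 averaged 30.4 TPM in (G4C2)36 (SD 1.10, n = 2) and stood at 23.4 TPM in UPF1 RNAi (n = 1), against 26.2 TPM in PA36 (SD 0.816, n = 2). It is listed here because both (G4C2)36 libraries lay above both PA36 libraries while the UPF1 RNAi library lay below them. The difference between these effects was not tested.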

How the results depend on the processing

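Of the 9 tested autophagy genes, 0 were called under any alternative (423 refits over pseudocount 0.1, no filter, median-of-ratios scaling, a replicate block, each library left out, and PA36 replicate 1 and PR36 replicate 1 left out together; smallest limma adjusted p = 0.49), and 46 refits changed the sign of a difference that was not called. Of their transcripts, FBtr0086711 of Atg7 alone was called with no filter, in UPF1 RNAi. It was listed at 0.268 TPM in that 1 library and at 0 in the 6 others. Its replicates show no spread, so the call rests on 1 value near 0 and is not read as a result. The depth is unknown, UPF1 RNAi has 1 library and 2 libraries a genotype limit every interval. The cause of the changes below was not tested.

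The count of called genes was 7 with no filter in PR36, against 18. With the replicate block it was 33 in PR36, 57 in (G4C2)36 and 44 in PR36 against (G4C2)36, and of transcripts 7, 0 and 19, with 5 in UPF1 RNAi. The difference between replicates 1 and 2 was taken per gene within each genotype and correlated over genes between genotypes. It correlated at -0.0772 for PR36 and (G4C2)36, 0.0975 for PR36 and PA36, and -0.074 for (G4C2)36 and PA36. The main fit does not read the replicate numbers as pairs. Heat shock sums were nonetheless high in replicate 1 of both PR36 and PA36, though not of (G4C2)36. Whether libraries of the same replicate number were handled together was not tested further. Without PA36 replicate 1 and PR36 replicate 1, chosen after seeing the data, 198 genes were called in PR36, 288 in (G4C2)36, 243 in UPF1 RNAi and 245 in PR36 against (G4C2)36, and 0 transcripts in each. Trpml was then called in (G4C2)36, where the PA36 library left is at 0. With no filter, 81 transcripts were called in (G4C2)36 and 396 in UPF1 RNAi. With 1 library left out, called genes ranged from 13 to 57 in PR36, 22 to 86 in (G4C2)36, 39 to 93 in UPF1 RNAi and 21 to 68 in PR36 against (G4C2)36, and called transcripts from 0 to 52, 0 to 51, 0 to 24 and 0 to 96.

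The following log2 fold changes, none called, changed sign. With median-of-ratios scaling in PR36, ref(2)P was -0.077, Atg7 -0.004, Atg9 -0.013, Atg18a -0.053, TER94 -0.041 and Lamp1 -0.041. In (G4C2)36, Atg1 was -0.065, Atg7 -0.005 and Atg18a -0.026. In UPF1 RNAi, Atg1 was -0.096, Atg5 -0.043, Atg7 -0.004 and park -0.06. With the replicate block in UPF1 RNAi, ref(2)P was -0.0 and park -0.144. Without PA36 replicate 1 and PR36 replicate 1, Mitf was -0.278 in PR36, Atg1 -0.162 in (G4C2)36, Atg1 -0.224 and Atg5 -0.02 in UPF1 RNAi, and Atg9 0.007, Atg18a 0.033 and Mitf -0.037 in PR36 against (G4C2)36.

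With 1 library left out, log2 fold changes ranged in PR36 from -0.076 to 0.181 for ref(2)P, -0.021 to 0.428 for Atg1, -0.008 to 0.234 for Atg7, -0.067 to 0.387 for Mitf and -0.056 to 0.23 for TER94. In (G4C2)36 they ranged from -0.162 to 0.286 for Atg1, -0.02 to 0.244 for Atg7, -0.109 to 0.311 for Atg18a and -0.24 to 0.181 for Mitf. In UPF1 RNAi they ranged from -0.001 to 0.256 for ref(2)P, -0.224 to 0.225 for Atg1, -0.02 to 0.118 for Atg5, -0.037 to 0.206 for Atg7 and -0.16 to 0.127 for TER94. In PR36 against (G4C2)36 they ranged from -0.005 to 0.288 for Atg1, -0.131 to 0.133 for Atg7, -0.196 to 0.007 for Atg9, -0.237 to 0.182 for Atg18a, -0.037 to 0.417 for Mitf and -0.328 to 0.053 for TER94.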

Other observations

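By a rule that took the tested genes with the highest Pearson r of log2(TPM + 1) over the 7 libraries, the genes most like ref(2)P were CG11459, CG1316 and CG5376, and those most like Atg8a were CG34140, egr and CG14907. egr, the tumour necrosis factor of flies, stood at 18.2 and 19.3 TPM in the PR36 libraries, 24.0 and 20.1 TPM in (G4C2)36, 19.1 TPM in UPF1 RNAi, and 16.9 and 14.7 TPM in PA36. These genes were picked as the closest among 9287, and the libraries share their total, so the likeness is a description.

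Summed TPM of the 6 fat body and yolk genes were 62340 and 59200 in PR36, 74020 and 127700 in (G4C2)36, 48740 in UPF1 RNAi, and 75900 and 38750 in PA36. Summed TPM of the 5 photoreceptor genes were 37690 and 44780 in PR36, 52240 and 37200 in (G4C2)36, 51890 in UPF1 RNAi, and 41810 and 44160 in PA36. The 5 hemocyte genes summed to 61.4 and 95.8 TPM in the PR36 libraries, 105 and 77.4 TPM in (G4C2)36, 64.4 TPM in UPF1 RNAi, and 70.5 and 111 TPM in PA36.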
